A study of Mus musculus with 12 samples.

Results

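The transcriptome of monocytic myeloid-derived suppressor cells (M-MDSCs) from mouse liver tumors was compared between mice given MS-275 and mice given vehicle. All gene symbols of 4 RNA-seq libraries were used, 2 labelled vehicle and 2 labelled MS-275, out of 12 libraries in the series. Of 24346 symbols, 10968 had a value of at least 1 FPKM (the number of fragments scaled by transcript length and by the fragments mapped) in 2 or more of the 4 libraries and were tested. Hepa 1-6 hepatoma cells had been injected into the liver of female wild-type C57BL/6J mice aged 6 to 8 weeks, and mice whose blood held more than 20% MDSCs on day 10 were kept. MS-275 was injected intraperitoneally at 5 mg/kg every day for 10 days, the vehicle group received the vehicle solution on the same schedule, and cells were collected on day 21. CD11b+Ly-6Chi Ly-6G- cells were sorted from the tumors. Another group of 2 libraries, from mice given CXD101 at the same dose and schedule, entered the model and is used below as a second comparison. Neither the labels nor the methods say how many animals contributed to a library, and all libraries come from 1 tumor line. The MDSC share in blood that was required on day 10 applied to every group.

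MS-275 (entinostat) inhibits class I histone deacetylases (HDACs), enzymes that take acetyl groups off histone tails within corepressor complexes. Inhibition raises histone acetylation, and both increases and decreases of transcription are known to follow in many cell types. M-MDSCs are immature monocyte-like cells that expand in tumor-bearing hosts, restrain T cells and can mature into macrophages and dendritic cells. Their progenitors in bone marrow pass through a stage that makes azurophil (primary) granule proteins, which also marks the neutrophil branch.

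The 4 libraries held 564078 to 592391 FPKM in total, and 13582 to 14211 symbols were above 0. The number of reads is unknown, since an FPKM table holds none, so the precision rests on the spread between replicates. The 2 vehicle libraries correlated across genes with r = 0.992 and the 2 MS-275 libraries with r = 0.991, on log2(FPKM + 1). The first principal component held 68.1% of the variance and placed the vehicle libraries at -31.0 and -30.6, the CXD101 libraries at 3.79 and 4.08, and the MS-275 libraries at 26.6 and 27.0. Among the genes that define the sort, Itgam (CD11b) was at 285 and 281 FPKM with vehicle and 257 and 257 FPKM under MS-275, and Ly6c2 (Ly-6C) was at 1360.2 and 1306 FPKM and 2395 and 2447 FPKM. Ly6c1, the near-identical partner of Ly6c2, was at 6.26 and 5.36 FPKM and 8.85 and 11.3 FPKM, and both Ly6c genes were called higher (log2 differences of 0.70 for Ly6c1 and 0.86 for Ly6c2). The call of Ly6c1 was lost without MS-275 replicate 2 (0.53) and in the fit on all 12 libraries. The gene of Ly-6G was not analysed here. Of the 11 T and NK cell markers and the 7 erythroid markers found in the files, none reached the minimum for testing, and Alb, Ttr and Serpina1a, which mark hepatocytes, were listed at 0 in all 4 libraries. The T and NK cell markers summed to 0.426 and 0.522 FPKM with vehicle and 2.24 and 2.39 FPKM under MS-275, of which Lck, a T cell kinase, made up 0.0508 and 0.106 FPKM and 1.24 and 0.873 FPKM. The part of lymphoid cells in the results was not tested. Of 10 hepatocyte and liver tumor markers, 4 were tested and 1 was higher. These 10 markers summed to 62.0 and 65.3 FPKM with vehicle and 50.2 and 47.5 FPKM under MS-275. The part of liver or tumor cells in the results was not tested. Of 6 B cell markers 1 was tested (Cd79b, 0.57) and not called. Cd79b passed the fold limit with a pseudocount of 0.1 (0.63), with median-of-ratios scaling (0.63), without vehicle replicate 1 (0.62) and without MS-275 replicate 2 (0.70). Of 8 markers of monocyte identity, 2 were higher and 2 lower, with a median log2 difference of -0.16.

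Many genes differed between MS-275 and vehicle, in both directions. In the limma model, 1116 of 10968 genes (10.2%) were higher and 812 (7.40%) were lower under MS-275, at an adjusted p below 0.05 and a fold change above 1.5. These shares are the background against which the gene groups below are read. At a fold change above 2 there were 525 higher and 194 lower genes, and at the adjusted p alone 2132 higher and 3038 lower genes. The median log2 difference over all genes tested, MS-275 minus vehicle on log2(FPKM + 1), was -0.06, and the middle 50% of genes lay between -0.28 and 0.21. The pseudocount of 1 makes these differences smaller than the true fold change for genes of low FPKM. Of the genes called higher, 333 were below 1 FPKM in both vehicle libraries. Of those called lower, 54 were below 1 FPKM in both MS-275 libraries. Each of these genes passed the minimum through the other group alone, so its direction was fixed, also within the lists below. The p-values measure the spread between libraries that the methods call biological replicates, with 2 per group. For all 1116 genes called higher and all 812 called lower, both MS-275 libraries lay on the same side of both vehicle libraries. A lack of overlap therefore adds nothing to a call for the genes named below.

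**Figure D1:**
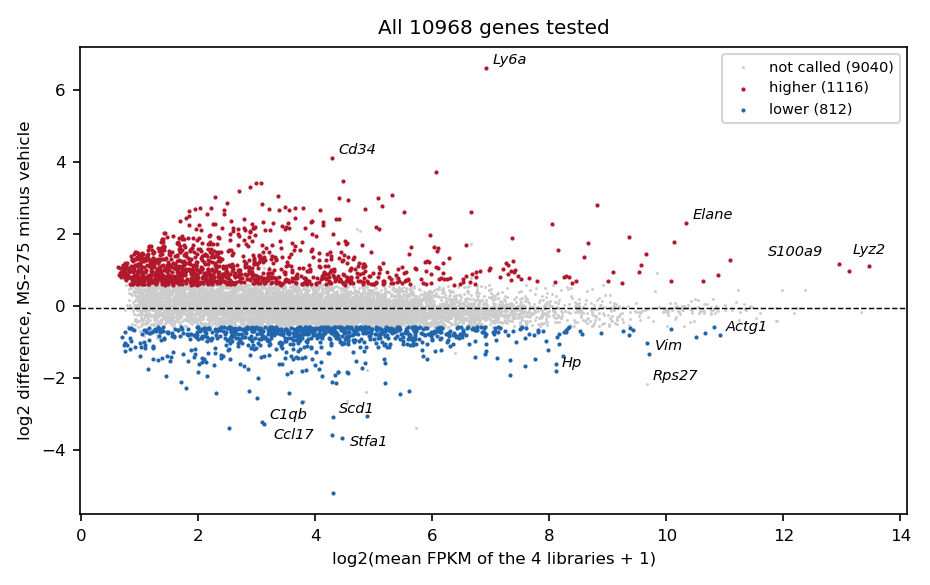
Each point is 1 of the 10968 genes tested; the horizontal axis is log2(mean FPKM of the 4 vehicle and MS-275 libraries + 1) and the vertical axis is the log2 difference, MS-275 minus vehicle. Red points (1116) were called higher and blue points (812) lower, the dashed line is the median of all genes (-0.06), and the called increases sit mostly at low FPKM, with Ly6a at 6.59 as the highest point. The lowest called point is a small nucleolar RNA, a class not described here.

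The largest increase by fold was that of Ly6a, the gene of the stem cell antigen Sca-1, on chromosome 15 (74994877 to 74998031, mm10). It was at 1.39 and 1.58 FPKM with vehicle and 224 and 254 FPKM under MS-275, a log2 difference of 6.59 ± 0.25 (SE, adjusted p = 1.2e-06). Cd34, a sialomucin of hematopoietic progenitors on chromosome 1 (194938821 to 194961292), was at 1.56 and 0.790 FPKM and 36.6 and 35.0 FPKM, a log2 difference of 4.10 ± 0.15 (SE, adjusted p = 1.2e-06). Prg2, which encodes the major basic protein of eosinophil granules, was at 10.6 and 6.56 FPKM and 113 and 133 FPKM. The vehicle and MS-275 libraries were far apart for each of these genes. The other genes among the 12 largest increases were Spink2 (a protease inhibitor of early progenitors), Ppbp (a platelet chemokine precursor), H2-Q8 and H2-Q7 (nonclassical class I antigens), Tesc (a calcium-binding protein), Cyp4a12a (a fatty acid hydroxylase), Nkg7 (a cytotoxic granule membrane protein), Gsta4 (a glutathione transferase) and Selm (a selenoprotein), with log2 differences from 3.0 to 3.46.

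On the opposite side, Stfa1, a stefin protease inhibitor on chromosome 16 (36277148 to 36285371), fell most by fold once small RNAs were set aside. It was at 42.7 and 36.8 FPKM with vehicle and 2.39 and 2.02 FPKM under MS-275, a log2 difference of -3.67 ± 0.18 (SE, adjusted p = 3e-06). Ccl17, a chemokine that attracts CCR4-bearing T cells, was at 41.8 and 28.3 FPKM and 2.21 and 1.75 FPKM, a log2 difference of -3.58 ± 0.18 (SE, adjusted p = 3.2e-06). C1qb, a chain of complement C1q made by tissue macrophages, lies on chromosome 4 (136880126 to 136886200). It was at 15.5 and 14 FPKM with vehicle and 0.501 and 0.760 FPKM under MS-275, a log2 difference of -3.27 ± 0.14 (SE, adjusted p = 1.8e-06). Both MS-275 libraries were far below both vehicle libraries for each of these 3 genes. Anpep (aminopeptidase N), Scd1 (stearoyl-CoA desaturase), 2010005H15Rik, Cdc42ep2 (an effector of the GTPase CDC42), Ccl22 (the partner chemokine of Ccl17), BC100530, F2rl2 (a protease-activated receptor), Cd38 (an NAD-consuming ectoenzyme) and Atp6v0d2 (a proton pump subunit of macrophages and osteoclasts) made up the rest of the 12, with log2 differences from -3.23 to -2.36. The gene 2010005H15Rik lies at 36221562 to 36257447 on chromosome 16, in the same cluster as Stfa1. Stefin, Ly6, H2-Q, Gbp, Bcl2a1, Pira, histone and ribosomal protein genes have near-identical copies, so that the split of reads among their copies is uncertain.

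**Figure D2:**
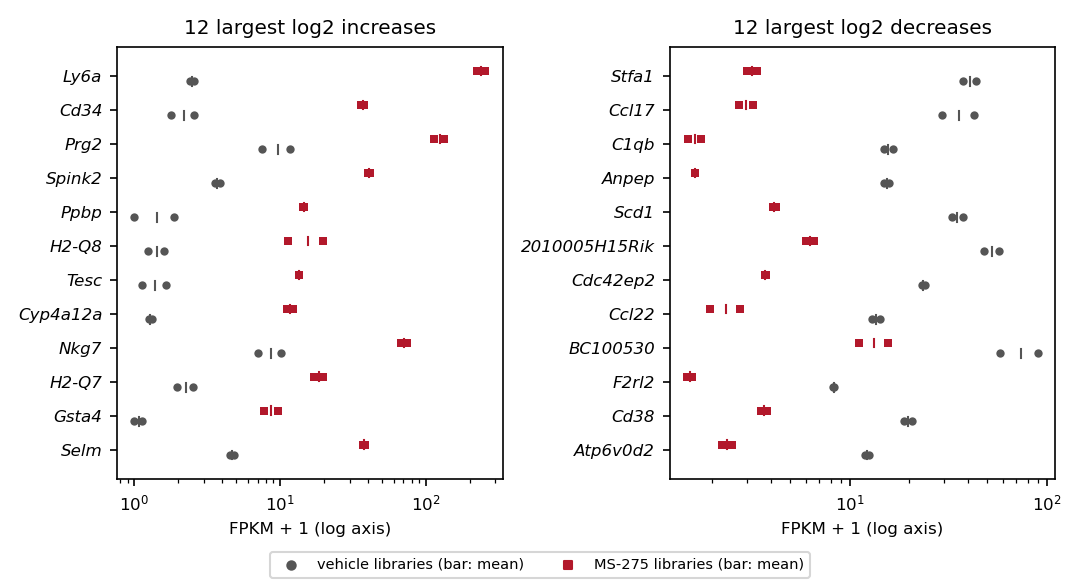
FPKM + 1 on a log axis for the 12 genes with the largest log2 increase (left) and the 12 with the largest decrease (right); circles are the 2 vehicle libraries, squares the 2 MS-275 libraries and vertical bars the group means. No gene shown has overlapping groups, which the selection required, and Ly6a reaches 224 and 254 FPKM under MS-275.

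In FPKM rather than fold, the largest gains were in a few very abundant myeloid transcripts. Lyz2, the lysozyme gene of monocytes and macrophages, was at 7321 and 7138 FPKM with vehicle and 15593 and 15305 FPKM under MS-275, a log2 difference of 1.10 ± 0.06 (SE, adjusted p = 6.9e-06). S100a9, a subunit of calprotectin, was at 4915 and 4869 FPKM and 10007 and 11888 FPKM, and its partner S100a8 at 6434 and 5693 FPKM and 10828 and 12836 FPKM. Together these 3 genes made up 3.21% and 2.99% of the summed FPKM in the vehicle libraries and 6.46% and 6.93% under MS-275. Under quantile normalization, which sets the highest values of all libraries equal, the log2 differences of Lyz2, S100a9 and S100a8 were 0.35, 0.50 and 0.13, under the fold limit. Chil3, Elane, Thbs1, Ly6c2, Mpo, S100a11 and Plac8 followed. Cytoskeletal genes made up 6 of the 10 largest losses. Actg1 (gamma-actin) was at 2370.4 and 2545 FPKM with vehicle and 1454 and 1357 FPKM under MS-275, a log2 difference of -0.81 ± 0.06 (SE, adjusted p = 2.6e-05). Vim (vimentin) was at 1167 and 1218 FPKM and 472 and 463 FPKM, a log2 difference of -1.35 ± 0.05 (SE, adjusted p = 1.2e-06). Pfn1 (profilin), Cfl1 (cofilin), Myl6 (a myosin light chain) and Arpc1b (a subunit of the Arp2/3 complex) were also among them, and Ccl6, S100a4, Eif4a1 and Hp were the others. The decrease of Cfl1 lay under the fold limit without vehicle replicate 2 (-0.57), with median-of-ratios scaling (-0.53) and with quantile normalization (-0.55).

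Grouped by function, the 45 gene lists differed widely in how many members were called. The median log2 difference was highest for stem and progenitor genes (1.30) and lowest for dendritic cell genes (-1.08). The lists of proteasome subunits, respiratory chain subunits, cytosolic ribosomal proteins and DNA replication genes had no called member. The proteasome list leaves out Psmb10, which is described with class I presentation.

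**Figure D3:**
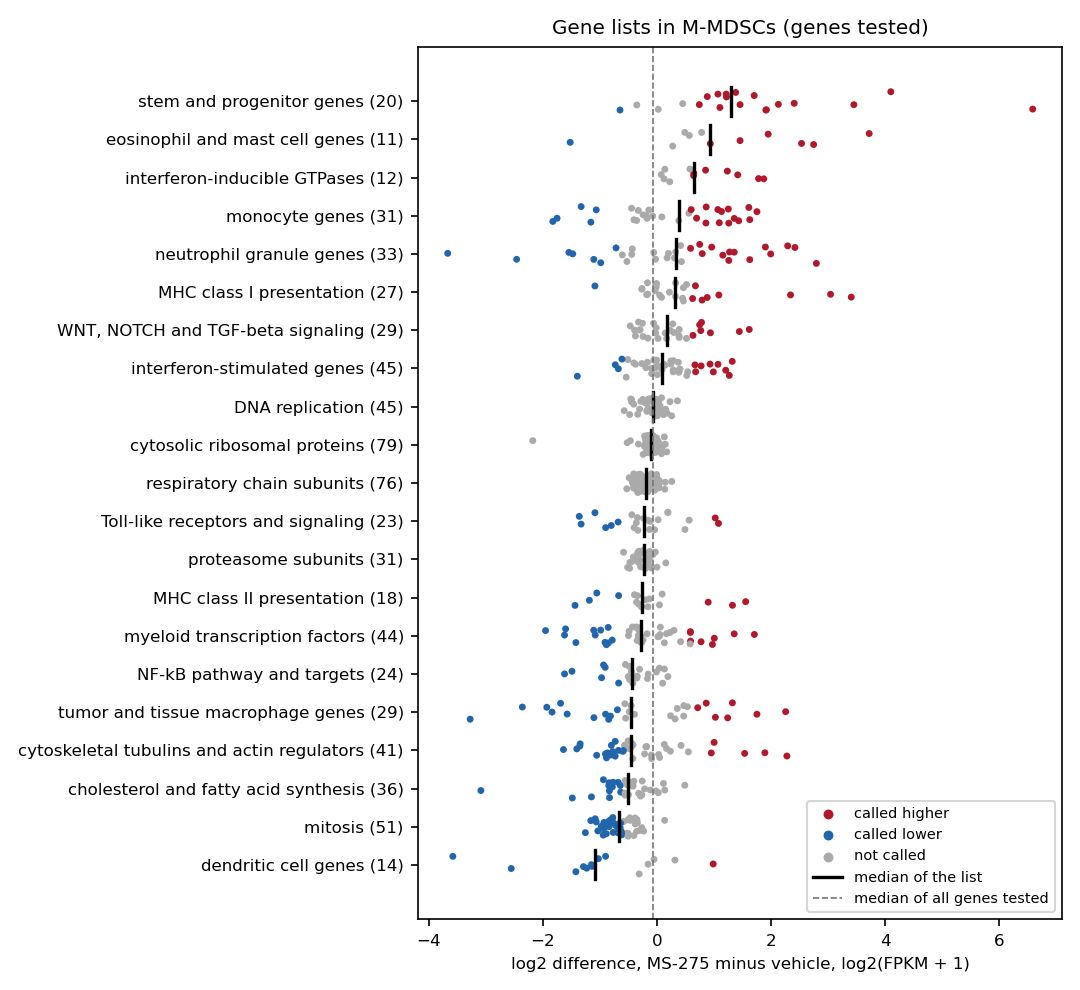
Log2 difference, MS-275 minus vehicle, of each gene tested in 21 of the 45 lists, ordered by the list median (black bars); the number of genes tested stands after each name, red points were called higher, blue points lower and gray points not called, and the dashed line is the median of all genes (-0.06). Progenitor genes spread to the right (median 1.30), while mitosis (-0.67), cholesterol and fatty acid synthesis (-0.51) and dendritic cell genes (-1.08) lie to the left.

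Stem and progenitor genes were the group with the largest share of increases. Of 32 listed genes, 20 were tested, and 16 were higher and 1 was lower. Because several members passed the FPKM minimum only through the MS-275 libraries, this share is not a share of all progenitor genes. Beyond Ly6a, Cd34 and Spink2, Egfl7, a secreted factor of endothelium and stem cells, was at 4.55 and 6.45 FPKM with vehicle and 36.0 and 30.6 FPKM under MS-275, a log2 difference of 2.41 ± 0.14 (SE, adjusted p = 7.3e-06). Myb, a transcription factor of proliferating progenitors, was at 12.4 and 11.1 FPKM and 53.1 and 56.4 FPKM, a log2 difference of 2.13 ± 0.08 (SE, adjusted p = 1.2e-06). Kit, the stem cell factor receptor, was at 3.86 and 3.38 FPKM and 10.4 and 11.7 FPKM. Each of these genes rose without overlap between the groups, which held for every called gene. Hoxa9 and Hoxa7, homeobox genes of progenitors, rose by log2 differences of 1.92 and 1.91, and Hoxa10 was listed at 0 in both vehicle libraries and at 1.14 and 1.06 FPKM under MS-275. Erg and Gata2, transcription factors of stem cells, rose by 1.71 and 1.46. Meis1, the usual partner of Hoxa9, was the exception, at 1.85 and 2.02 FPKM with vehicle and 0.878 and 0.874 FPKM under MS-275, a log2 difference of -0.65 ± 0.14 (SE, adjusted p = 0.0062). Of the 8 endothelial and stromal markers, 2 were tested and both were higher. The endothelial markers Cdh5 and Kdr and the stromal markers Col1a1, Col3a1, Pdgfra and Dcn stayed below the minimum for testing, while Pecam1 rose from 9.44 and 8.80 FPKM to 35.7 and 33.1 FPKM, and the 8 markers summed to 10.1 and 9.39 FPKM with vehicle and 37.5 and 35.0 FPKM under MS-275. The part that rare cells of another type may have in these values was not tested, and in sorted bulk samples fewer cells of a type and less RNA per cell cannot be told apart.

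**Figure D4:**
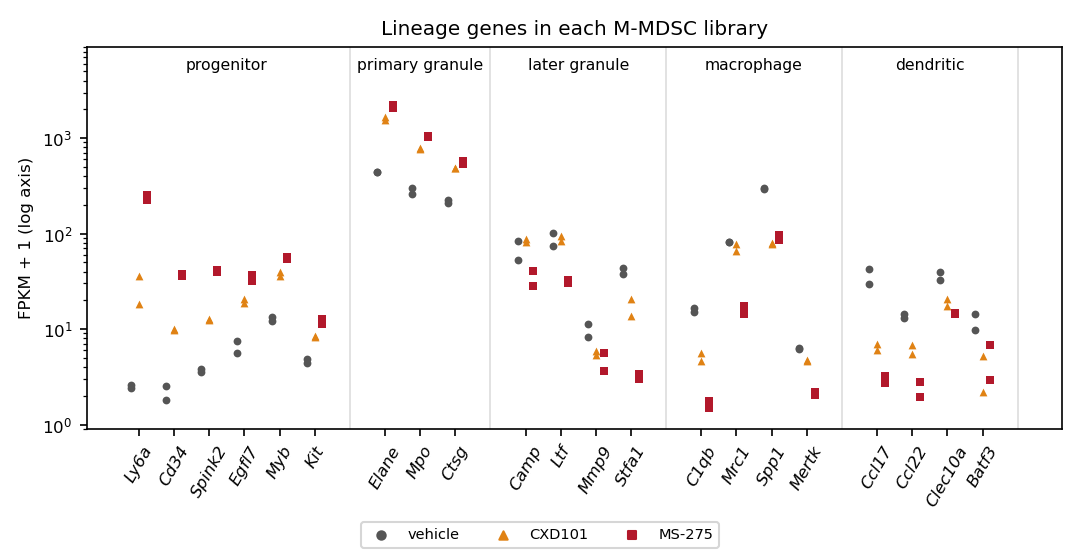
FPKM + 1 on a log axis for progenitor, primary granule, later granule, macrophage and dendritic cell genes in the 6 M-MDSC libraries; circles are vehicle, triangles CXD101 and squares MS-275, with 2 libraries each. The progenitor and primary granule genes shown are highest under MS-275 (Elane at 2064 and 2244 FPKM), and the later granule, macrophage and dendritic cell genes shown are lower under MS-275 than under vehicle. Stfa1, drawn with the later granule genes, is a stefin protease inhibitor and not a granule protein. The genes are chosen examples and do not stand for all members of their lists. Among those left out, Mmp8, Cd63, Fcgr4, Cd81 and Meis1 went against the direction shown for their groups, and Prtn3 was not called.

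Transcription factors of the myeloid lineage changed in both directions, with 8 of 44 tested genes higher, 12 lower and a median of -0.28. Gfi1, a transcriptional repressor that acts in the granulocyte branch, was at 12.5 and 13.9 FPKM with vehicle and 33.9 and 37.0 FPKM under MS-275, a log2 difference of 1.36 ± 0.08 (SE, adjusted p = 8.5e-06). Cebpa, which directs progenitors to the myeloid fate, was at 28.0 and 26.6 FPKM and 59.0 and 53.0 FPKM, a log2 difference of 1.01 ± 0.10 (SE, adjusted p = 9.8e-05). Myc, a driver of growth, was at 71.2 and 79.8 FPKM and 145 and 154 FPKM. These factors of earlier stages rose, and so did the inhibitors of differentiation Id3 and Id1, with log2 differences of 1.71 and 0.78. Klf4, required for monocyte formation, was at 53.1 and 54.6 FPKM with vehicle and 17.8 and 16.4 FPKM under MS-275, a log2 difference of -1.60 ± 0.08 (SE, adjusted p = 3e-06). Irf5, which drives inflammatory cytokine genes, fell by 1.11 on the log2 scale. Maf and Rxra, factors of mature macrophages, had log2 differences of -1.08 and -0.99.

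The cell cycle genes separated by phase. None of the 45 DNA replication genes was called in either direction, their median was -0.07 and they ranged from -0.57 for Rfc3 to 0.36 for Mcm6. Pcna, the replication clamp, was at 318 and 311 FPKM with vehicle and 326 and 329 FPKM under MS-275, a log2 difference of 0.06 ± 0.06 (SE, adjusted p = 0.42). In contrast, 33 of 51 mitosis genes were lower and none was higher, with a median of -0.67. At the adjusted p alone, 49 of 51 mitosis genes were lower, against 12 lower and 3 higher of 45 replication genes. Ube2c, the ubiquitin-conjugating enzyme of the anaphase-promoting complex, was at 183 and 157 FPKM with vehicle and 69.1 and 72.0 FPKM under MS-275, a log2 difference of -1.25 ± 0.08 (SE, adjusted p = 1.1e-05). Cdc20, an activator of that complex, was at 69.9 and 71.8 FPKM and 32.5 and 34.3 FPKM, a log2 difference of -1.06 ± 0.06 (SE, adjusted p = 8.8e-06). Ccnb1 (cyclin B1) was at 85.8 and 80.1 FPKM and 43.3 and 41.8 FPKM, a log2 difference of -0.95 ± 0.08 (SE, adjusted p = 5e-05). These mitotic genes fell to roughly equal levels in both MS-275 libraries. Nusap1 and Kif20a, which act on the spindle, had log2 differences of -1.16 and -1.08. The proliferation markers Mki67 and Top2a were not called, with log2 differences of -0.31 and -0.26, and Pttg1 (securin) was the only mitosis gene with a positive value (0.14).

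Promoters of late cell cycle genes carry an element called CHR (cell cycle genes homology region), which complexes of the DREAM and MYB-MuvB type bind, often next to CCAAT boxes. The letters TTTGAA (CHR) and CCAAT were searched on both strands in RefSeq promoter windows of GRCm38.p6 (the mm10 assembly), which run from 250 bases before to 50 bases after each listed start. Windows were found for 8436 of the 10968 genes tested, 10755 windows in all. TTTGAA stood in 12% of all windows, in 11.9% of the windows of DNA replication genes (5 of 42) and in 75.6% of those of mitosis genes (34 of 45). It was not limited to mitosis genes, with 55.6% of the windows of interferon-inducible GTPases (5 of 9) and 21.7% of interferon-stimulated genes (10 of 46). Its share was 6.9% for stem and progenitor genes and 9.09% for cholesterol and fatty acid synthesis. Within the mitosis list it stood in 22 of 29 windows of genes called lower (75.9%) and in 12 of 16 windows of the others (75%), close shares. The CCAAT letters stood in 37.9% of all windows, 59.5% of replication windows and 75.6% of mitosis windows. The 250 bases before the start are shown for the 3 mitosis genes with the largest decrease among those with TTTGAA there, 5′ to 3′ on the gene's strand, with these letters, on either strand, in capitals. They lie at chr2:164769679-164769928 (plus strand, Ube2c), chr4:118437344-118437593 (minus strand, Cdc20) and chr7:80294226-80294475 (plus strand, Prc1).
Ube2c: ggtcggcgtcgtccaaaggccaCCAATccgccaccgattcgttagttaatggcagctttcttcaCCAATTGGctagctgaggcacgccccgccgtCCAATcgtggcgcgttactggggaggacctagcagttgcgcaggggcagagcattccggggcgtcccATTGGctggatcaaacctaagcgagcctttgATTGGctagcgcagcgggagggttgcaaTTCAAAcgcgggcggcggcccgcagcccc
Cdc20: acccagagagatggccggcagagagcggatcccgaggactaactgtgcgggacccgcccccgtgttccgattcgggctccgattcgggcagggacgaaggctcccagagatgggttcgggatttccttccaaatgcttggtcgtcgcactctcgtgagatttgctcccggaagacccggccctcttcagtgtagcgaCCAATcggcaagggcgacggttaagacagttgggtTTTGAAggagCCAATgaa
Prc1: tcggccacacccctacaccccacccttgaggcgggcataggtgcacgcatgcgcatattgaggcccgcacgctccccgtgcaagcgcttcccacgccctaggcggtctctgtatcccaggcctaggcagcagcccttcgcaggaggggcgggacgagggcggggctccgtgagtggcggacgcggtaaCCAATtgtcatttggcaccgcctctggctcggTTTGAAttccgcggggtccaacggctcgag
Between the CHR letters and the listed start lie 23 bases in Ube2c, 12 in Cdc20 and 24 in Prc1. Ube2c holds 6 matches to CCAAT in this stretch (2 of them overlap, on opposite strands), Cdc20 holds 2 and Prc1 holds 1. Prc1, a spindle midzone protein, was at 59.8 and 49.8 FPKM with vehicle and 31.1 and 31.5 FPKM under MS-275, a log2 difference of -0.78 ± 0.11 (SE, adjusted p = 0.00069). A match to these letters is a description and not a mapped site.

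**Figure D5:**
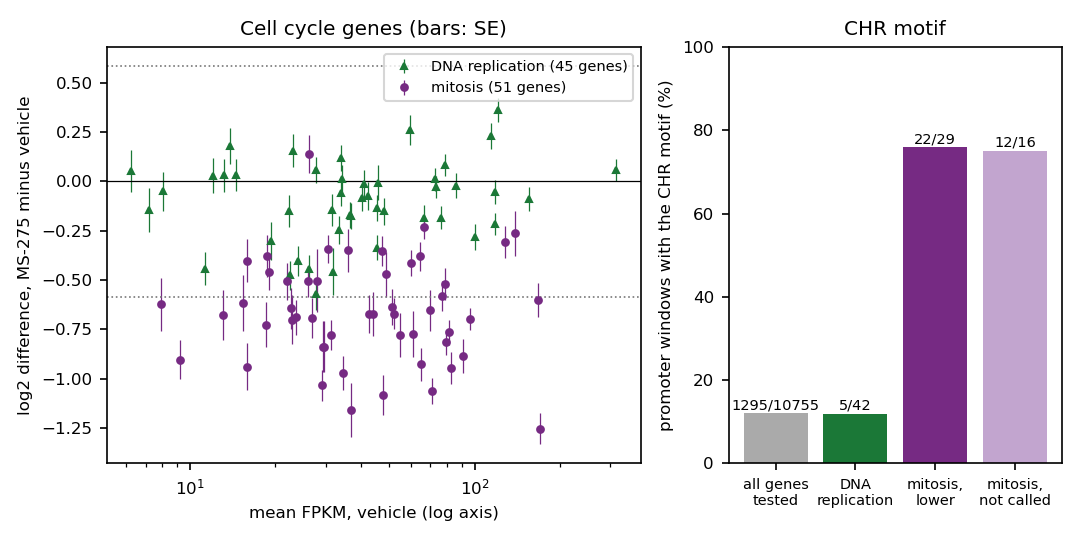
Left, log2 difference (MS-275 minus vehicle, bars are SE) against mean vehicle FPKM on a log axis for 45 DNA replication genes (triangles) and 51 mitosis genes (circles); dotted lines mark the fold limit of 1.5. Right, share of promoter windows that hold the CHR letters, with the number of windows above each bar: 12% of all genes tested, 11.9% of replication genes and 75.9% and 75% of mitosis genes called lower and not called.

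Of 7 cyclin-dependent kinase inhibitors tested, 2 were higher and 2 lower (median -0.24). The induction of Cdkn1a (p21) is a common response to HDAC inhibitors. Here Cdkn1a was at 163 and 165 FPKM with vehicle and 138 and 139 FPKM under MS-275, a log2 difference of -0.24 ± 0.05 (SE, adjusted p = 0.0055), below the fold limit and in the downward direction. Cdkn2a rose from 0.147 and 0.273 FPKM to 2.53 and 1.77 FPKM and Cdkn1c from 0 and 0.0583 FPKM to 1.11 and 1.15 FPKM, both low levels. Both passed the minimum for testing only through the MS-275 libraries. Cdkn2c, an inhibitor of CDK4 and CDK6, was at 14.6 and 15.3 FPKM and 7.44 and 5.98 FPKM, a log2 difference of -1.05 ± 0.11 (SE, adjusted p = 0.00015).

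The targets of MS-275 and their complexes held few called genes. Hdac1 was at 86.3 and 87.8 FPKM with vehicle and 129 and 127 FPKM under MS-275, a log2 difference of 0.55 ± 0.05 (SE, adjusted p = 9.3e-05) that lay under the fold limit but passed it with median-of-ratios scaling (0.62) and quantile normalization (0.69). Hdac2 and Hdac3 had log2 differences of 0.03 (adjusted p = 0.73) and 0.12 (adjusted p = 0.17). Of 34 subunits of HDAC corepressor complexes, 2 were higher and 1 was lower. Chd3, a helicase of the NuRD complex, was at 1.21 and 1.51 FPKM with vehicle and 8.22 and 8.52 FPKM under MS-275, a log2 difference of 1.99 ± 0.11 (SE, adjusted p = 5.3e-06), whereas its paralog Chd4 was not called. Rcor2 rose by 1.04. Sap30, of the SIN3 complex, was at 27.8 and 25.6 FPKM and 18.5 and 15.9 FPKM, a decrease of -0.61 that lay under the fold limit without vehicle replicate 1 (-0.55) or MS-275 replicate 2 (-0.50), with median-of-ratios scaling (-0.54) and with quantile normalization (-0.52). Histone genes had 9 higher and 2 lower members of 27 tested. The linker histone H1f0, a marker of HDAC inhibition in many cell types, was at 34.4 and 34.2 FPKM with vehicle and 80.9 and 81.3 FPKM under MS-275, a log2 difference of 1.22 ± 0.06 (SE, adjusted p = 3.2e-06). The variant macroH2A gene H2afy was at 260.4 and 264 FPKM and 400.4 and 406 FPKM, and its paralog H2afy2 rose by 1.34. Hist1h1c, another linker histone, was at 11.6 and 11.6 FPKM and 17.8 and 19.4 FPKM, a call lost without MS-275 replicate 2 (0.58). Libraries were made from polyadenylated RNA, which holds few replication-dependent histone transcripts.

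Monocyte genes had more increases than decreases, with 14 higher and 5 lower of 31 tested and a median of 0.38. Thbs1 (thrombospondin 1) was at 578 and 448 FPKM with vehicle and 1732 and 1709 FPKM under MS-275, a log2 difference of 1.76 ± 0.11 (SE, adjusted p = 9.9e-06). Plac8, a marker of classical monocytes, was at 444 and 419.8 FPKM and 1131 and 1208 FPKM, a log2 difference of 1.44 ± 0.07 (SE, adjusted p = 3.6e-06). Chil3, a chitinase-like protein of early monocytes, was at 1333 and 1226 FPKM and 3007 and 3126 FPKM. Fn1 (fibronectin), Ifitm6 and Cd177 (also a neutrophil surface antigen) rose by 1.25, 1.61 and 1.63. Not all monocyte genes moved this way. Hp (haptoglobin) was at 430.4 and 428 FPKM with vehicle and 116 and 126 FPKM under MS-275, a log2 difference of -1.82 ± 0.06 (SE, adjusted p = 9e-07). Fcgr1, the high-affinity IgG receptor, was at 25.1 and 24.6 FPKM and 6.72 and 6.66 FPKM, a log2 difference of -1.75 ± 0.08 (SE, adjusted p = 2.7e-06). Cd14, the coreceptor for lipopolysaccharide, was at 23.9 and 28.2 FPKM and 11.3 and 8.36 FPKM. Clec4e and Vcan had log2 differences of -1.16 and -1.06. Ccr2, the chemokine receptor of classical monocytes, was at 147 and 137 FPKM with vehicle and 125 and 124 FPKM under MS-275, a log2 difference of -0.19 ± 0.07 (SE, adjusted p = 0.044) under the fold limit. Csf1r, the M-CSF receptor, was also not called (-0.35).

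Macrophage and dendritic cell genes had more decreases than increases. Of 29 macrophage genes tested, 11 were lower and 7 higher (median -0.45), and of 14 dendritic cell genes, 9 were lower and 1 was higher (median -1.08). Mrc1, the mannose receptor CD206, was at 79.9 and 81.3 FPKM with vehicle and 16.4 and 13.5 FPKM under MS-275, a log2 difference of -2.36 ± 0.11 (SE, adjusted p = 2.3e-06). Spp1 (osteopontin) was at 289 and 298 FPKM and 85.3 and 95.6 FPKM, a log2 difference of -1.69 ± 0.07 (SE, adjusted p = 1.2e-06). Mertk, a receptor for apoptotic cells, was at 5.31 and 5.24 FPKM and 1.18 and 1.04 FPKM. These genes fell together with C1qb and C1qc, while the fatty acid carrier Fabp4 had a value of -1.93. Of 9 defining macrophage markers, 6 were tested and 5 were lower, the sum of all 9 was 147 and 148 FPKM with vehicle and 77.2 and 70.3 FPKM under MS-275, and Adgre1 (F4/80) was the member not called, with a log2 difference of 0.47 (called higher with quantile normalization, 0.62). Cd63, a tetraspanin of lysosomes and exosomes, went the other way, at 89.1 and 90.8 FPKM and 421 and 448 FPKM, a log2 difference of 2.26 ± 0.06 (SE, adjusted p = 3e-07). Fcgr4 and Cd81 also rose, by 1.24 and 0.87. Among dendritic cell genes, Clec10a and Mgl2, galactose lectins, had log2 differences of -1.29 and -1.14. Ccr7, which guides mature dendritic cells to lymph nodes, was at 1.99 and 2.46 FPKM with vehicle and 0.600 and 0.316 FPKM under MS-275. Batf3, a factor of conventional dendritic cells, was at 8.77 and 13.4 FPKM and 5.75 and 1.92 FPKM, a log2 difference of -1.42 ± 0.45 (SE, adjusted p = 0.031), with unequal values in both groups. This call was lost without either vehicle library (-1.70 and -1.14) and without MS-275 replicate 2 (-0.82).

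Of 33 genes tested in the neutrophil granule list, 14 were higher and 7 lower. The lowest member, Stfa1 (-3.67), is a stefin protease inhibitor and not a granule protein, so these counts are not of granule proteins alone. Elane (neutrophil elastase), of the primary granules, was at 436 and 439.9 FPKM with vehicle and 2064 and 2244 FPKM under MS-275, a log2 difference of 2.29 ± 0.06 (SE, adjusted p = 3.7e-07). Mpo (myeloperoxidase) was at 298 and 257 FPKM and 1018 and 1059 FPKM, a log2 difference of 1.90 ± 0.07 (SE, adjusted p = 1.2e-06). Ctsg (cathepsin G) was at 221 and 210.1 FPKM and 534 and 574 FPKM. These 3 genes rose in both MS-275 libraries, as did every gene called higher. Prtn3 (proteinase 3), another primary granule gene, was at 751 and 774 FPKM and 988 and 1049 FPKM and was not called (0.42). Ltf (lactoferrin) and Camp (cathelicidin), of the secondary granules, were at 73.3 and 102 FPKM and 51.8 and 82.8 FPKM with vehicle and 29.1 and 31.8 FPKM and 26.9 and 39.5 FPKM under MS-275, with log2 differences of -1.47 and -0.98. Mmp9, of the tertiary granules, fell by 1.11 on the log2 scale. Mmp8, a collagenase also stored in secondary granules, did not follow them. It was at 117 and 107 FPKM with vehicle and 768 and 801 FPKM under MS-275, a log2 difference of 2.80 ± 0.12 (SE, adjusted p = 1.9e-06). The stefin Stfa2l1 had a log2 difference of -1.54. Of 8 neutrophil markers found in the files, 5 were higher and 2 lower, and their sum was 11604 and 10872 FPKM with vehicle and 21707 and 25643 FPKM under MS-275, most of it S100a8 and S100a9 (with quantile normalization 3 were higher). In the vehicle libraries of PMN-MDSCs, the polymorphonuclear subset, S100a8 was at 35864 and 52947 FPKM and Cxcr2 at 80.8 and 109 FPKM, while Elane was at 74.7 and 35.6 FPKM. In the MS-275 libraries of PMN-MDSCs, S100a8 was at 112553 and 94852 FPKM, Cxcr2 at 327 and 294 FPKM, Mmp8 at 2592 and 2555 FPKM and Elane at 146 and 172 FPKM. Elane was thus lower in these 4 PMN-MDSC libraries than in every M-MDSC library, and S100a8 and Cxcr2 were higher. Ltf and Camp, lower under MS-275 in M-MDSCs, were higher under MS-275 in PMN-MDSCs. There, Ltf was at 693 and 760 FPKM with vehicle and 4077 and 4098 FPKM under MS-275. Camp was at 295 and 278 FPKM and 1821 and 1954 FPKM. Stfa1 was lower under MS-275 in PMN-MDSCs too, at 84.3 and 161 FPKM and 17.5 and 14.3 FPKM. The part of carried-over PMN-MDSCs in the neutrophil values was not tested.

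Eosinophil and mast cell genes had 6 higher and 1 lower members of 11 tested. Epx (eosinophil peroxidase) was at 2.68 and 1.28 FPKM with vehicle and 18.4 and 18.6 FPKM under MS-275, a log2 difference of 2.75 ± 0.20 (SE, adjusted p = 2e-05). Prg3 and Ear1, of the same granules, rose by 2.54 and 1.95. The eosinophil surface receptors Ccr3 and Il5ra stayed at or below 0.217 FPKM in all 4 libraries. Of 7 eosinophil markers found, 3 were higher, and their sum was 159 and 195 FPKM with vehicle and 377 and 407 FPKM under MS-275. Hdc, which makes histamine, rose by 0.94. The part of admixed eosinophils was not tested. Genes of cytotoxic granules had 4 higher and no lower member of 10 tested. Nkg7 was at 9.19 and 6.01 FPKM with vehicle and 66.3 and 72.7 FPKM under MS-275, a log2 difference of 3.06 ± 0.18 (SE, adjusted p = 7.9e-06). Srgn (serglycin), the proteoglycan core of granules, was at 195 and 176 FPKM and 596 and 639.8 FPKM, a log2 difference of 1.73 ± 0.08 (SE, adjusted p = 3.2e-06). Gzma, Gzmb and Prf1, the cytotoxic effectors themselves, stayed below the minimum for testing.

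Genes of immune suppression, the function for which MDSCs are named, changed in both directions. Of 27 tested, 7 were higher and 3 lower (median 0.20). Nt5e (CD73), which makes adenosine, was at 0.986 and 0.882 FPKM with vehicle and 7.76 and 7.61 FPKM under MS-275, a log2 difference of 2.17 ± 0.12 (SE, adjusted p = 5.3e-06). The checkpoint ligands Cd276 (B7-H3) and Pdcd1lg2 (PD-L2) rose by 1.56 and 0.92, and Cd274 (PD-L1) had a value of 0.28 and was not called. Arginase genes went in opposite directions. Arg1 was at 18.5 and 22 FPKM with vehicle and 3.58 and 6.92 FPKM under MS-275, a log2 difference of -1.81 ± 0.23 (SE, adjusted p = 0.00036). The mitochondrial form Arg2 was at 4.39 and 3.02 FPKM and 9.08 and 8.43 FPKM, a log2 difference of 1.07 ± 0.21 (SE, adjusted p = 0.0036). Slc7a2, an arginine carrier, had a log2 difference of -1.13. Nos2, Ido1 and Il10 stayed below the minimum for testing.

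Antigen presentation genes were grouped by class. For class I, 8 of 27 genes were higher and 1 was lower. H2-Q7 was at 1.53 and 0.959 FPKM with vehicle and 16.2 and 18.7 FPKM under MS-275, and H2-Q8 was at 0.587 and 0.245 FPKM and 10.3 and 18.7 FPKM, a log2 difference of 3.41 ± 0.25 (SE, adjusted p = 2.1e-05). B2m, the light chain of all class I molecules, was at 872 and 798 FPKM and 1299 and 1369 FPKM, a log2 difference of 0.68 ± 0.07 (SE, adjusted p = 0.00011). The classical genes H2-K1 and H2-D1 had values of 0.33 and 0.47 and were not called, though H2-D1 was with quantile normalization (0.60). Psmb10, an immunoproteasome subunit, was at 63.0 and 68.1 FPKM with vehicle and 29.7 and 31.0 FPKM under MS-275, a log2 difference of -1.09 ± 0.07 (SE, adjusted p = 1.1e-05). For class II, 3 of 18 genes were higher and 4 lower. Cd74, the invariant chain, was at 161 and 148 FPKM and 54.0 and 59.3 FPKM, a log2 difference of -1.43 ± 0.09 (SE, adjusted p = 1.1e-05). Ctss (cathepsin S), which trims it, was at 386 and 391 FPKM and 189 and 184 FPKM, a log2 difference of -1.05 ± 0.05 (SE, adjusted p = 3.2e-06). H2-Oa and H2-Ob, the chains of the H2-O modulator of peptide loading, rose by 1.56 and 1.33, and the class II transactivator Ciita stayed below the minimum for testing.

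Interferon-inducible GTPases had 7 higher and no lower member of 12 tested, with a median of 0.65. Gbp3, a guanylate-binding protein, was at 2.78 and 3.56 FPKM with vehicle and 10.1 and 10.1 FPKM under MS-275, a log2 difference of 1.42 ± 0.12 (SE, adjusted p = 4e-05). Gbp8 was at 2.28 and 2.51 FPKM and 9.47 and 12 FPKM, and Gbp4 at 0.646 and 0.394 FPKM and 4.36 and 4.77 FPKM. All of these are low levels, and the GTPase genes called are all of the Gbp family. Gbp4 passed the minimum for testing only through the MS-275 libraries. Among 45 other interferon-stimulated genes, 9 were higher and 4 lower and the median was 0.09. Oas3 and Dhx58, sensors of double-stranded RNA, rose by 1.27 and 1.21, Ifitm1 was at 491 and 519.8 FPKM and 929 and 1004 FPKM, and Ifi203 fell by 1.39 on the log2 scale. The core of interferon response elements, searched as GAAA, any 2 bases and GAAA again, stood on either strand in 3.14% of all promoter windows. It stood in 77.8% of the windows of GTPase genes (7 of 9) and 41.3% of those of interferon-stimulated genes (19 of 46). The 9 windows belong to 8 of the 12 GTPase genes. The stretch before the start of Gbp3 (chr3:142559794-142560043, plus strand) is shown as the example with the largest increase among the GTPase genes that hold this motif, with 2 overlapping matches in capitals.
Gbp3: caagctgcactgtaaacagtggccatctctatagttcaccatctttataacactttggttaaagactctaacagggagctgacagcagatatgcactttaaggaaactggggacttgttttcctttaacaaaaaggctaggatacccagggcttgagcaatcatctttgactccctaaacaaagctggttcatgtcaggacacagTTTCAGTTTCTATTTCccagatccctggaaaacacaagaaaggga
Between the nearest match and the listed start lie 29 bases.

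Chemokine genes were among the largest changes in both directions, with 4 ligands higher and 5 lower of 16 tested. Ccl2, the main ligand of CCR2, was at 31.1 and 33.9 FPKM with vehicle and 6.85 and 6.31 FPKM under MS-275, a log2 difference of -2.14 ± 0.10 (SE, adjusted p = 2.2e-06). Ccl7, another CCR2 ligand, was at 3.35 and 2.33 FPKM and 0.433 and 0.365 FPKM, a log2 difference of -1.44 ± 0.18 (SE, adjusted p = 0.00039). Both ligands were lower in each MS-275 library than in each vehicle library, as was every gene called lower. Of the ligands that rose, Ppbp was at 0.867 and 0 FPKM and 13.6 and 13.4 FPKM, Pf4 (platelet factor 4) was at 7.89 and 9.26 FPKM and 32.4 and 29.9 FPKM, and Cxcl3, a ligand of CXCR2, was at 5.02 and 3.16 FPKM and 18.7 and 30.3 FPKM. Among receptors, 3 were higher and 4 lower of 14. Cxcr2 was at 2.81 and 3.11 FPKM with vehicle and 20.8 and 19.7 FPKM under MS-275, a log2 difference of 2.42 ± 0.09 (SE, adjusted p = 1.2e-06), and Cxcr4, which retains cells in bone marrow, was at 43.0 and 41.3 FPKM and 86.8 and 93.4 FPKM. C3ar1, Cmklr1 and Fpr2, receptors for complement, chemerin and formyl peptides, had log2 differences of -0.89, -0.99 and -0.76.

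Innate sensing and NF-kB genes had more decreases than increases. Of 24 NF-kB genes, 6 were lower and none higher (median -0.43), and the subunits of the alternative pathway changed most. Relb was at 8.41 and 9.41 FPKM with vehicle and 2.21 and 2.24 FPKM under MS-275, a log2 difference of -1.62 ± 0.12 (SE, adjusted p = 2.3e-05). Nfkb2 was at 21.6 and 21.9 FPKM and 7.12 and 7.10 FPKM, a log2 difference of -1.49 ± 0.12 (SE, adjusted p = 3.1e-05). Rela and Nfkb1, of the classical pathway, had values of -0.35 and -0.50 and were not called. Toll-like receptors and their signaling genes had 2 higher and 6 lower members of 23. Tlr4, the lipopolysaccharide receptor, was at 26.3 and 25.1 FPKM and 13.4 and 13.2 FPKM, a log2 difference of -0.90 ± 0.07 (SE, adjusted p = 3.6e-05). Its partner Ly96 (MD-2) fell by 1.36 on the log2 scale and the adaptor Myd88 had a value of -0.80. Of 25 interleukin-1 and inflammasome genes, 3 were higher and 3 lower. Il18 was at 6.45 and 7.03 FPKM with vehicle and 24.4 and 19.8 FPKM under MS-275, a log2 difference of 1.57 ± 0.10 (SE, adjusted p = 1.4e-05), and Mefv (pyrin) rose by 1.48. Il6 was at 3.01 and 2.36 FPKM and 0.0974 and 0.492 FPKM, a log2 difference of -1.52 ± 0.18 (SE, adjusted p = 0.00029).

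Fc and inhibitory receptors had 8 higher and 10 lower members of 39. Pirb, an inhibitory receptor for class I molecules, was at 91.7 and 93.2 FPKM with vehicle and 39.8 and 36.9 FPKM under MS-275, a log2 difference of -1.25 ± 0.06 (SE, adjusted p = 3.2e-06), and its activating relative Pira2 had a value of -1.78. Siglece and Clec12a, inhibitory lectins, were at 16.2 and 17.2 FPKM and 103 and 89.3 FPKM with vehicle and 38.3 and 38.3 FPKM and 198 and 195 FPKM under MS-275. Ptpn6 (SHP-1), the phosphatase that many of these receptors recruit, was at 271 and 269.6 FPKM and 151 and 155 FPKM, a log2 difference of -0.82 ± 0.05 (SE, adjusted p = 1.4e-05). Cytokine and growth factor receptors had 6 higher members and 1 lower member of 29. Csf3r, the G-CSF receptor, was at 8.75 and 10.5 FPKM with vehicle and 24.3 and 24.9 FPKM under MS-275, a log2 difference of 1.27 ± 0.09 (SE, adjusted p = 1.9e-05). Csf2rb, the shared beta chain of the GM-CSF, IL-3 and IL-5 receptors, was at 225 and 220.4 FPKM and 396 and 380.2 FPKM, and Ifngr2 was at 45.3 and 43.1 FPKM and 27.4 and 25.4 FPKM.

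Lipid synthesis was the metabolic group with the most decreases. Of 36 cholesterol and fatty acid synthesis genes, 13 were lower and none higher (median -0.51), and at the adjusted p alone 30 were lower and 1 higher. Scd1 was at 36.4 and 32.0 FPKM with vehicle and 3.2 and 3.08 FPKM under MS-275, a log2 difference of -3.09 ± 0.17 (SE, adjusted p = 5.3e-06). Scd2, the more abundant desaturase, was at 335 and 301 FPKM and 114 and 112 FPKM, a log2 difference of -1.48 ± 0.07 (SE, adjusted p = 3.2e-06). Insig1, the sterol-regulated anchor of SREBP, was at 53.6 and 50.4 FPKM and 22.1 and 23.8 FPKM. The decrease extended to mevalonate and sterol enzymes, with log2 differences of -0.94 for Mvd, -0.83 for Cyp51 and -0.78 for Lss, and to the regulator Srebf1 (-0.68). Lipid uptake, storage and efflux genes had 3 higher and 8 lower members of 33. Dgat2, which makes triglycerides, was at 23.5 and 23.2 FPKM with vehicle and 75.9 and 73.5 FPKM under MS-275, a log2 difference of 1.64 ± 0.07 (SE, adjusted p = 1.8e-06). Olr1 (LOX-1), a receptor for oxidized LDL used as a marker of suppressive neutrophils, was at 1.61 and 1.74 FPKM and 10.1 and 8.54 FPKM, a log2 difference of 1.94 ± 0.12 (SE, adjusted p = 8.9e-06). Abca1, a cholesterol exporter, was at 1.67 and 1.31 FPKM and 0.0771 and 0.0866 FPKM.

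Of 76 respiratory chain subunits and 79 cytosolic ribosomal proteins none was called, with medians of -0.18 and -0.11. At the adjusted p alone, 39 respiratory chain subunits were lower and 1 higher, all within the fold limit. Rps27 shows a limit of these estimates, at 1395 and 931 FPKM with vehicle and 74.8 and 840.0 FPKM under MS-275, where the MS-275 replicates differ many times over, and its log2 difference of -2.18 ± 0.88 (SE, adjusted p = 0.072) was not called. Glycolysis and hypoxia genes had 5 higher and 8 lower members of 37, and 5 and 4 with median-of-ratios scaling or 5 and 5 with quantile normalization. The glucose carrier Slc2a1 was at 71.5 and 66.5 FPKM and 42.0 and 39.1 FPKM, a log2 difference of -0.75 ± 0.07 (SE, adjusted p = 6.2e-05), and the enzymes Tpi1 and Aldoc had values of -0.79 and -1.03, while Vegfa and Pfkfb3 rose by 0.80 and 0.82. Serine and one-carbon synthesis had 3 higher and 1 lower of 26. Cth, which makes cysteine, was at 0.357 and 0.559 FPKM and 4.10 and 3.68 FPKM, and the cystine carrier Slc7a11 had a log2 difference of -0.85. Antioxidant and NADPH oxidase genes had 4 higher and 2 lower of 30. The glutathione transferase Gstm1 was at 142 and 149 FPKM with vehicle and 428 and 417 FPKM under MS-275, a log2 difference of 1.53 ± 0.05 (SE, adjusted p = 9.5e-07). Iron handling genes had 2 higher and 6 lower of 20. Tfrc, the transferrin receptor, was at 54.5 and 45.3 FPKM and 94.1 and 93.7 FPKM, and Slc11a1 (NRAMP1), the iron exporter of phagosomes, was at 9.15 and 10.1 FPKM and 2.71 and 3.57 FPKM, a log2 difference of -1.36 ± 0.13 (SE, adjusted p = 6.8e-05).

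Protein turnover genes changed in single members. Of 14 NEDD4 family ligases and adaptors, 1 was higher and 2 were lower. Nedd4 was at 11.9 and 9.03 FPKM with vehicle and 28.3 and 33.5 FPKM under MS-275, a log2 difference of 1.48 ± 0.13 (SE, adjusted p = 4.8e-05). Smurf1, a ligase of the BMP pathway, was at 7.46 and 7.84 FPKM and 3.50 and 2.93 FPKM, and the adaptor Arrdc4 had a value of -1.19. TRIM ligases had 4 higher and 3 lower members of 33, with Trim6 at 0.867 and 0.849 FPKM and 3.26 and 3.76 FPKM. None of the 31 proteasome subunits listed was called (median -0.23). That list leaves out the immunoproteasome subunit Psmb10, which was called lower (-1.09) among the class I genes. Lysosomal genes had 2 higher and 6 lower of 45. Ctsb (cathepsin B) was at 268 and 288 FPKM with vehicle and 169.9 and 162 FPKM under MS-275, a log2 difference of -0.74 ± 0.06 (SE, adjusted p = 2.9e-05). Ctsk, the collagen-degrading cathepsin of osteoclasts, was at 4.76 and 4.82 FPKM and 0.125 and 0.237 FPKM, a log2 difference of -2.29 ± 0.13 (SE, adjusted p = 6.9e-06).

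Survival and stress genes showed no common direction. In the BCL2 family, 3 of 18 genes were higher and 5 lower, with 3 and 3 under median-of-ratios scaling and 2 and 2 under quantile normalization. The BH3-only genes Bmf and Pmaip1 (Noxa), which promote cell death, rose by 1.29 and 0.80. Mcl1, a survival factor of myeloid cells, was at 118 and 115 FPKM with vehicle and 79.1 and 74.1 FPKM under MS-275, a log2 difference of -0.60 ± 0.07 (SE, adjusted p = 0.00016). Bcl2a1b, another survival gene, was at 189 and 182 FPKM and 115 and 113 FPKM, a log2 difference of -0.70. The decrease of Mcl1 was under the fold limit without vehicle replicate 1 (-0.58) or MS-275 replicate 2 (-0.55), with median-of-ratios scaling (-0.53) and with quantile normalization (-0.46). Bbc3 (PUMA), which promotes death, had a log2 difference of -0.64, a call lost without either vehicle library (-0.67 and -0.61) or MS-275 replicate 1 (-0.54). Immediate early genes had 5 higher and 7 lower of 28, and 5 and 4 with quantile normalization. Atf3 was at 9.34 and 10.6 FPKM and 3.84 and 3.87 FPKM, and Junb and Jund had log2 differences of -0.70 and -0.79. Heat shock and unfolded protein response genes had 1 higher (Ern1, 0.76) and 1 lower (Dnaja1, -0.92) of 29.

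Cytoskeletal genes had more decreases than increases. Of 41 tubulins and actin regulators, 16 were lower and 5 higher (median -0.45). Capg, an actin-capping protein of macrophages, was at 423 and 445 FPKM with vehicle and 167 and 159.6 FPKM under MS-275, a log2 difference of -1.40 ± 0.06 (SE, adjusted p = 1.3e-06). Tpm4 (tropomyosin) was at 177 and 165 FPKM and 68.7 and 64.8 FPKM, and Flna (filamin A) at 359 and 362 FPKM and 203 and 187 FPKM. Gsn (gelsolin), an actin-severing protein often induced by HDAC inhibitors, was at 108 and 111 FPKM and 221 and 205 FPKM, a log2 difference of 0.95 ± 0.06 (SE, adjusted p = 9.4e-06). Integrins, selectins and other adhesion genes had 6 higher and 2 lower of 24. Itga6 was at 3.63 and 3.81 FPKM with vehicle and 15.4 and 15.4 FPKM under MS-275, a log2 difference of 1.80 ± 0.09 (SE, adjusted p = 3.2e-06), and Itgb1 and Itgax (CD11c) had values of -0.74 and -0.90. Matrix genes had 7 higher and 7 lower of 28. Tgfbi was at 201 and 202 FPKM and 77.3 and 69.1 FPKM, a log2 difference of -1.45 ± 0.07 (SE, adjusted p = 2.7e-06), and Mmp12, the macrophage elastase, had a value of -1.0.

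Genes of other lineages, which class I HDACs are known to keep silent, mostly stayed below the minimum for testing. Of 71 neuronal and synaptic genes, 20 were tested, 9 were higher and 3 lower, and with quantile normalization 5 were higher and 3 lower. Several of these, such as Bex1, also passed the minimum only through the MS-275 libraries. Bex1 was listed at 0 in both vehicle libraries and at 1.82 and 1.80 FPKM under MS-275. The tubulin Tubb2a, listed among neuronal genes, was at 22.9 and 23.2 FPKM and 6.27 and 7.22 FPKM, a log2 difference of -1.64 ± 0.11 (SE, adjusted p = 1.2e-05). WNT, NOTCH and TGF-beta signaling genes had 7 higher and no lower member of 29 tested, and 4 higher and 1 lower with quantile normalization. The list holds 52 genes, and members such as Jag2 and Nrarp passed the minimum only through the MS-275 libraries. Jag2, a NOTCH ligand, was at 0.0741 and 0.103 FPKM with vehicle and 1.99 and 2.74 FPKM under MS-275, a log2 difference of 1.62 ± 0.16 (SE, adjusted p = 0.00011). Nrarp, a NOTCH target, was listed at 0 in both vehicle libraries and at 1.71 and 1.74 FPKM under MS-275. Smad6 and Smad7, inhibitors of BMP and TGF-beta signaling, rose by 0.77 and 0.75. Krt18, an epithelial keratin, was at 0.0795 and 0 FPKM and 5.54 and 5.73 FPKM, a log2 difference of 2.67 ± 0.14 (SE, adjusted p = 3.6e-06), whereas its partner Krt8 was listed at 0 in all 4 libraries.

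CXD101, the other HDAC inhibitor of the series, was given at the same dose and schedule, so 1 pair of compounds could be compared directly. In the same model, MS-275 exceeded CXD101 for 362 genes (3.30%) and fell short of it for 125 (1.14%). The first number fell when any MS-275 or CXD101 library was left out. Of the 12 largest increases over vehicle, 11 were also higher than under CXD101, the exception being Prg2, and of the 12 largest decreases 10 were also lower, the exceptions being Anpep and Scd1. Both comparisons use the same MS-275 libraries. Ly6a was at 34.5 and 17.1 FPKM under CXD101, a log2 difference, MS-275 minus CXD101, of 3.24 ± 0.25 (SE, adjusted p = 0.00034). Mrc1 was at 65.0 and 77.4 FPKM under CXD101, a log2 difference of -2.18 ± 0.11 (SE, adjusted p = 7.8e-05). Arg1 was at 16.2 and 20.7 FPKM under CXD101, a log2 difference of -1.68 ± 0.23 (SE, adjusted p = 0.0034). For these genes the inhibitors differed by more than the spread between replicates. H2-Q8 was at 0.152 and 0.00572 FPKM under CXD101 and Nedd4 at 20.3 and 19.3 FPKM, with log2 differences of 3.79 and 0.61, both called. Of the mitosis genes, 8 were also lower under MS-275 than under CXD101. Among them, Ube2c was at 113 and 105 FPKM under CXD101, a log2 difference of -0.62 ± 0.08 (SE, adjusted p = 0.0027).

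Other genes were not called between the inhibitors. S100a9 was at 10842 and 10326 FPKM under CXD101, a log2 difference of 0.04 with a 95% interval of -0.15 to 0.24. Prg2 was at 94.0 and 102 FPKM, a log2 difference of 0.33 with an interval of -0.07 to 0.72. Chil3 was at 3519 and 3197 FPKM, a log2 difference of -0.13 with an interval of -0.29 to 0.03. Ccr2 was at 137 and 125 FPKM under CXD101, a log2 difference of -0.07 with an interval of -0.22 to 0.08.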

How the data were processed

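Per the labels, RNA of sorted tumor M-MDSCs was made into stranded, polyadenylated mRNA libraries and sequenced as 101-base single-end reads. The submitters' processing notes name TopHat2 2.1.1, Bowtie2 2.2.8, SAMtools 0.1.18, Cuffdiff 2.2.1 and mm10, and the deposited files hold the FPKM value the authors obtained per gene symbol in each sample. The annotation and the strand setting are not given in the sources used here, so that reads of a gene and of an antisense neighbour may not have been separated. Of the genes named, 50 overlap an exon of a gene on the opposite strand in the reference annotation, among them Cd34, Mpo, Myb and Ube2c.

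Genes with at least 1 FPKM in 2 of the 4 libraries were transformed to log2(FPKM + 1) and fitted with limma 3.58.1 (R 4.3.3, trended empirical Bayes) over the 6 M-MDSC libraries, which left 3 residual degrees of freedom. P-values were adjusted by Benjamini-Hochberg over all 10968 genes. A call needed an adjusted p below 0.05 and a fold change above 1.5. Since the values are not counts, no count model was used. On simulated data, 179 of 200 genes shifted by 1 (log2) were recovered among 10968 genes. The shifted genes were drawn from those with a mean vehicle log2(FPKM + 1) above 2, so this recovery does not cover genes of lower FPKM. The median SE of a log2 difference was 0.0975.

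Genes were named by rule: the 12 largest changes in each direction among genes of at least 5 FPKM in the higher group without overlap and without small RNAs, the 10 largest gains and losses of FPKM, the called members of 55 hand-written lists (up to 5 per direction) with their defining members, and Hdac1, Hdac2, Hdac3, Nedd4 and Ccr2. Further list members serve as examples picked with their values in view. The members and lists were chosen with earlier results of these data known, and lists are described by counts and medians with no set test. Small RNAs were set aside by the start of their symbols, which also set aside coding genes whose symbols start with Rn, none of them with a change large enough to enter these sets. Small RNAs are not described, and some genes that fit the rule are not reported here. The PMN-MDSC libraries served for scale only.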

Additional observations from a re-analysis of the deposited data

How the results depend on the processing

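With MS-275 against vehicle, the 1116 higher and 812 lower genes became 525 and 194 at a fold change above 2, and a minimum of 5 FPKM, with fewer genes tested, gave 571 higher and 689 lower genes, so that 45.3% of the called genes were higher in place of 57.9%. Against CXD101, 159 were higher and 108 lower with that minimum. Leaving out each library in turn gave 1098 to 1141 higher and 815 to 868 lower genes against vehicle, and 237 to 351 higher and 116 to 137 lower against CXD101, with 237 without MS-275 replicate 1 and 244 without MS-275 replicate 2. Median-of-ratios scaling gave 1256 higher and 637 lower genes against vehicle and quantile normalization 953 and 838. A pseudocount of 0.1 gave 1339 and 950, and no filter on low FPKM gave 1226 and 816. The replicate block gave 1116 and 817 against vehicle and 357 and 119 against CXD101. Libraries with the same number shared little deviation from their group means (r = 0.0421 to 0.0838 over the pairs of groups), so the numbers were not taken as a pairing. Fits without the intensity trend, on the 4 libraries compared alone or on all 12 libraries gave counts within 1.5 times the reported ones.

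Of 3392 pairs of a named gene and an alternative, 3346 kept direction and call, 31 lost the call, 13 gained it and 2 changed sign. Both sign changes were those of Chd4, which was at 0.017 with median-of-ratios scaling and 0.091 with quantile normalization. Quantile normalization ended the calls of Lyz2, S100a8, S100a9, Smad6, Smad7, Bcl2a1b, Cfl1, Eif4a1, Junb, Mcl1, Sap30 and Srebf1, and median-of-ratios scaling those of Cfl1, Mcl1 and Sap30. Batf3 also lost its call with no filter on low FPKM and with no intensity trend. Rfc3 was called lower with a pseudocount of 0.1 and without vehicle replicate 1 or MS-275 replicate 1, and Rps27 with the replicate block and without MS-275 replicate 2. List medians changed sign for 3 of 53 lists with median-of-ratios scaling (interleukin-1, adhesion and matrix genes) and 6 with quantile normalization (DNA replication, chemokine ligand, adhesion, antioxidant, BCL2 and hepatocyte genes). Each of these medians lay near the median of all genes. The number of reads behind each FPKM is unknown, which limits what can be said of genes near the minimum.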
